A study of Arabidopsis thaliana with 42 samples.

Results

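Leaves of wild-type Arabidopsis thaliana were sequenced for small RNA at days 24 and 28 after leaf emergence and at day 20. The 6 libraries were chosen by age alone, 4 for days 24 and 28 together (2 sets at each age) and 2 for day 20, out of 14 small RNA libraries at 7 ages and 42 libraries in all. The groups differ in age only, with no treatment, mutation or transgene, and the leaf position and the number of plants per library are not stated in the labels. The sets are described as independent biological replicates without saying what was kept separate, so the tests below speak of the variation among these libraries, part of which can be technical. The values were read counts per sequence of 18 to 48 nt, with a sequence and its reverse complement taken as 1 feature. Where both were listed with the same counts, these were used once. Unlike counts were summed, for 159 features in set 1 and 153 in set 2. The 6 libraries held between 5017063 and 7775274 such reads. Levels are given as CPM, in which each count is scaled by the library's total of these reads. In a pair of values for one age, set 1 is given before set 2. In whole leaves, fewer cells of a type and less RNA per cell cannot be told apart.

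Plant microRNAs are cut from hairpin precursors by a Dicer enzyme and guide an Argonaute protein to messenger RNAs that match them, mostly in transcription factors, which are then cut or held from translation. Most are 21 nt long, while small interfering RNAs of 24 nt direct DNA methylation at repeats. Leaf samples also hold fragments of transfer RNA (tRNA), among them 5′ and 3′ parts made by cutting in the anticodon loop, and plant RNases of the T2 class are known to make such cuts. Because small RNA libraries measure shares of a total, a class can be lower because another took more of the reads, and absolute amounts cannot be told from these values.

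The sequences on which the results turn are of 2 kinds. The first are the 5′ parts of tRNA-like sequences, which made up most reads of 32 and 33 nt. The longest listed member of a family that reaches through the anticodon arm is shown, 5′ to 3′, with the 3 anticodon letters in capitals, as taken from the deposited tables.
TTC-1: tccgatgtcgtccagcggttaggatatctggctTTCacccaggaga
GTC-1: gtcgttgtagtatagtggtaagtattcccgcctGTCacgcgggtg
TCC-1: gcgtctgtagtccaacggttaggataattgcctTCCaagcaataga
TTC-2: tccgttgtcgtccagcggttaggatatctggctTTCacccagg
CTC-1: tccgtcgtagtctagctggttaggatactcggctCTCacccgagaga
GTC-2: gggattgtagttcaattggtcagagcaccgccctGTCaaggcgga

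The second kind are the microRNAs, in RNA letters as listed in the tables, with the seed (bases 2 to 8) in capitals. MiR165a and miR166a share a seed and differ near the 3′ end, and so do miR159a and miR159b.
miR165a: uCGGACCAggcuucauccccc
miR166a: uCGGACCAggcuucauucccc
miR159a: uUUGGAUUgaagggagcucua
miR159b: uUUGGAUUgaagggagcucuu
miR160a: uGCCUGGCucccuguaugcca
miR164a: uGGAGAAGcagggcacgugca
miR167d: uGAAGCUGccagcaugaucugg
miR398b: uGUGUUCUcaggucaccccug
miR827: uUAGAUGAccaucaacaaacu

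Reads of 32 and 33 nt took a larger share of the library at days 24 and 28 than at day 20, and reads of 21 and 23 nt a smaller one. The 32-nt class held 17.5% and 20.95% of reads at day 24 and 25.6% and 34.5% at day 28, against 14.9% and 10.7% at day 20. The 33-nt class held 8.30% and 6.94% at day 24 and 10.9% and 13.1% at day 28, against 5.02% and 2.97% at day 20. All 4 late libraries lay above both day 20 libraries in each of these lengths, and within each set day 28 was above day 24. The 21-nt class, the usual length of microRNAs, held 10.3% and 9.67% at day 24 and 11.03% and 5.62% at day 28, against 13.9% and 15.3% at day 20. The 23-nt class held 4.33% and 4.85% at day 24 and 3.11% and 2.102% at day 28, against 6.47% and 8.43% at day 20. Late and day 20 libraries did not overlap in either of these lengths.

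Reads of 22 nt averaged 2.03 ± 0.443% in late libraries and 3.13 ± 0.898% at day 20 (SD, n = 4 and 2), and those of 24 nt 2.07 ± 0.337% and 2.69 ± 0.893%. In both lengths the groups overlapped. Together, lengths of 29 to 33 nt made up 61.5 ± 5.90% of late reads and 43.9 ± 6.68% of day 20 reads, and lengths of 34 to 48 nt 5.14 ± 1.35% and 6.08 ± 4.42%. An exact two-sided permutation test of 4 against 2 libraries has 15 arrangements and cannot give a p below 0.133, the value found for 21 nt, for 23 nt and for 29 to 33 nt. In limma on log2 percent over the 14 libraries none of 31 lengths passed (0.0% of lengths called, smallest adjusted p = 0.348 at 23 nt, 2 lengths at unadjusted p under 0.05). The estimated log2 differences were 0.92 ± 0.60 (SE) for 32 nt, 1.3 ± 0.72 for 33 nt, -0.72 ± 0.31 for 21 nt and -1.11 ± 0.33 for 23 nt.

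**Figure D1:**
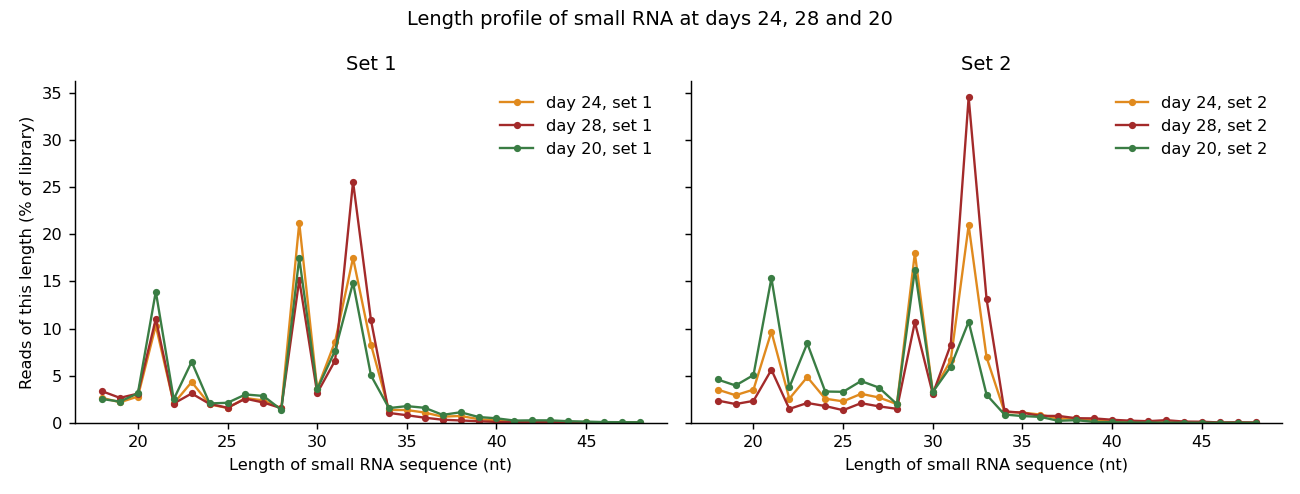
Percent of a library's reads (y axis) at each length from 18 to 48 nt (x axis), with a line for each age and a panel for each set. The day 28 lines peak at 32 nt with 25.6% and 34.5%, above day 20 with 14.9% and 10.7%, and the order is the other way round at 21 and 23 nt.

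Most reads of 32 and 33 nt had the letters of the 5′ part of a tRNA, and their share was larger in late libraries. T at base 8, A at base 14 and a GG that starts at base 17, 18 or 19 are letters that most tRNAs share. They were searched for from the 5′ end on both strands. They occurred in 6.18% of the 2846 sequences of 32 and 33 nt, and in 2.77% of the 21216 sequences of 20 to 24 nt. By reads, however, sequences with these letters made up 86.6% and 89.8% of the 32- and 33-nt class at day 24 and 90.8% and 94.5% at day 28, against 80.0% and 77.1% at day 20. In the class of 20 to 24 nt they made up between 1.76% and 3.56% of reads in all 6 libraries. The families described next made up 77.6% and 81.1% of reads of 32 and 33 nt at day 24 and 81.9% and 83.5% at day 28, against 71.8% and 69.8% at day 20.

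Sequences that share their first 18 bases were summed into families. A family was kept where it averaged at least 100 CPM over the 6 libraries, where its most abundant member had the tRNA letters, and where a longer listed member could fold an anticodon arm, with a stem of 5 pairs and a loop of 7 bases with T in place 2. This left 10 families with 7 different anticodons, which are named by the anticodon's letters. Together they held 27.0% and 28.7% of all reads at day 24 and 35.5% and 47.3% at day 28, against 21.8% and 15.7% at day 20. Of the 10, 6 were higher in all 4 late libraries than in both day 20 libraries, 1 was lower in all and 3 overlapped. Of all 1059 starts of 18 bases at this level, 11.0% were higher and 11.6% lower in the same sense, where 1 molecule can give several starts. Of single sequences, 5.03% were higher and 6.53% lower.

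The largest family, TTC-1, has the anticodon of a glutamate tRNA and was the most abundant of the 10 in each of the 6 libraries. It had 146436 and 163056 CPM at day 24 and 202848 and 307255 CPM at day 28, against 113197 and 89918 CPM at day 20. Its main 32-nt form alone had 87965 and 113202 CPM at day 24 and 140324 and 209623 CPM at day 28, against 70219 and 50261 CPM at day 20. All late libraries were above both of day 20 in the family and in this form. GTC-1, with an aspartate anticodon, had 54643 and 51824 CPM at day 24 and 76047 and 55229 CPM at day 28, against 30476 and 19593 CPM at day 20. TCC-1, with a glycine anticodon, had 37124 and 46565 CPM at day 24 and 44492 and 74518 CPM at day 28, against 29008 and 20393 CPM at day 20. The sums of families were not tested, and none of the main forms of these 3 families passed in edgeR or DESeq2. The log2 differences were 1.07 ± 0.85 (SE, edgeR adjusted p = 0.908) for TTC-1 and 1.91 ± 0.87 (edgeR adjusted p = 0.657) for GTC-1. That of TCC-1 was 1.04 ± 0.88 (edgeR adjusted p = 0.925).

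The smaller glutamate families TTC-2, CTC-1 and CTC-2 were higher as well, in all late libraries. TTC-2, a near copy of TTC-1 whose reads the counting keeps apart by sequence, had 6747 and 8477 CPM at day 24 and 12346 and 17228 CPM at day 28, against 4480 and 3802 CPM at day 20. CTC-1 showed the largest ratio of the 10, with 1357 and 1144 CPM at day 24 and 1802 and 1877 CPM at day 28, against 437 and 320 CPM at day 20. Its late mean was 4.08 times its day 20 mean. CTC-2 had 930 and 901 CPM at day 24 and 1303 and 1359 CPM at day 28, against 469 and 666 CPM at day 20.

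The other 4 families did not follow. GTC-2, a second family with an aspartate anticodon, had 13679 and 9879 CPM at day 24 and 10033 and 7023 CPM at day 28, against 25260 and 18232 CPM at day 20, so its late mean was 0.467 of its day 20 mean. Its main 33-nt form did not pass (log2 difference -1.18 ± 0.68 (SE), edgeR adjusted p = 0.786). GCC-1 (glycine) averaged 5266 ± 1445 CPM in late libraries and 7734 ± 6301 CPM at day 20, where set 1 had 12190 and set 2 had 3279 CPM. GAC-1 (valine) averaged 884 ± 174 and 849 ± 221 CPM, and CAA-1 (leucine) 837 ± 218 and 909 ± 609 CPM. As background, and without a genome to check it against here, the letters of these 4 families are those of tRNAs encoded in plant chloroplast DNA, where the 6 families that were higher are not. With TMM factors applied on top of library totals, which give the day 20 libraries of sets 1 and 2 unlike weights (factors of 0.516 and 0.957), 3 families in place of 6 stood above both day 20 libraries.

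**Figure D2:**
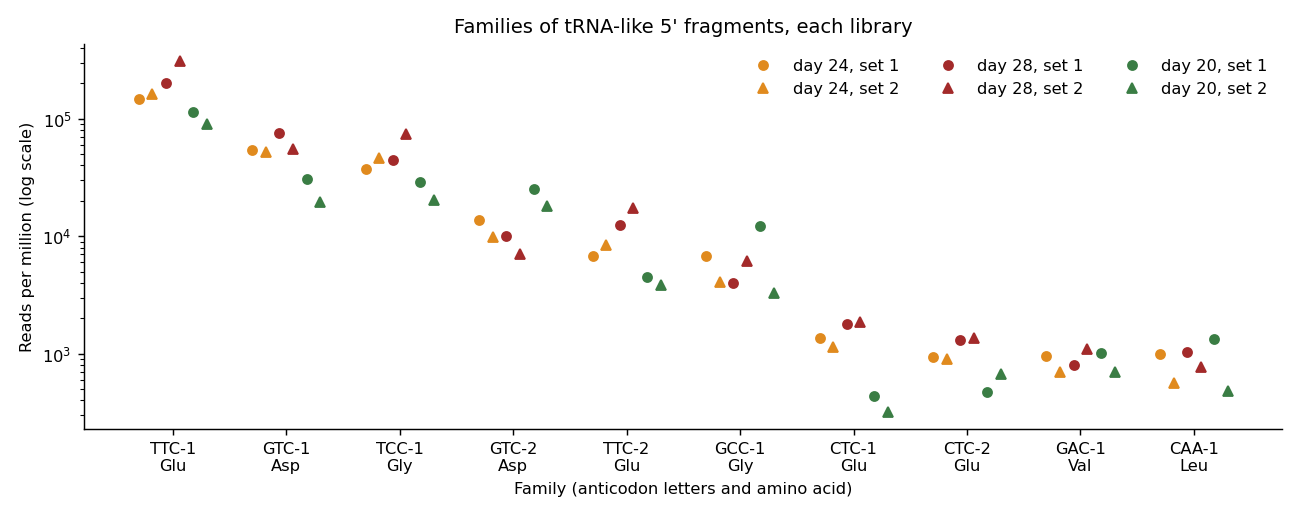
Summed level of each family of tRNA-like 5′ fragments in CPM (log scale, y axis) in the 6 libraries, with days 24 and 28 left of day 20, and a circle for set 1 and a triangle for set 2. In TTC-1, GTC-1, TCC-1, TTC-2, CTC-1 and CTC-2 all late points lie above both day 20 points, and in GTC-2 all lie below.

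Beside the level, the place where these fragments ended differed. Most TTC-1 reads ended within the last 3 bases before the anticodon (between 83.1% and 97.6% per library), most of them 1 base short of it. The share of TTC-1 reads whose last base directly precedes the anticodon, a length of 33 nt, was 16.6% and 12.1% at day 24 and 19.2% and 19.9% at day 28, against 7.16% and 4.70% at day 20. The share that stopped 2 bases short was 16.8% and 12.8% at day 24 and 6.67% and 9.41% at day 28, against 21.7% and 22.5% at day 20. Both shares are ratios within a library and do not depend on its scaling. In all 4 late libraries TTC-1 fragments reached the anticodon more often than in both day 20 libraries.

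The share at this place was higher in late libraries in other families too. In GTC-1 the share ending directly before the anticodon was 48.6% and 39.2% at day 24 and 48.8% and 42.7% at day 28, against 30.8% and 23.1% at day 20. In TCC-1 it was 18.8% and 14.7% at day 24 and 17.4% and 18.0% at day 28, against 10.1% and 6.90% at day 20. CTC-1 had 64.4% and 54.3% at day 24 and 61.0% and 55.6% at day 28, against 43.5% and 28.3% at day 20. GTC-2, the family with the lower level, had 23.5% and 22.5% at day 24 and 27.2% and 27.6% at day 28, against 18.7% and 14.2% at day 20. In all, 8 of 10 families had a higher share in every late library than in both day 20 libraries, and GCC-1 and GAC-1 overlapped. Over all 1059 starts, of the 8736 lengths that held on average at least 1% of the reads of their start, 7.67% had a higher and 6.33% a lower share in the same sense, where the shares of one start are not independent. The place itself was chosen after its values were seen. In 3 families few reads ended there, at most 7.72% in CAA-1, 5.72% in GCC-1 and 0.873% in GAC-1 in any of the 6 libraries.

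The share that stopped 2 bases short was lower in all late libraries in 5 families (TTC-1, GTC-1, TCC-1, GTC-2 and TTC-2), overlapped in 3 and was higher in 2. GAC-1 ended further from the anticodon in late libraries, with 28.5% and 51.2% at day 24 and 51.7% and 72.9% at day 28 stopping 2 bases short, against 19.6% and 19.4% at day 20. In CTC-2 that share was 3.49% and 3.19% at day 24 and 3.92% and 5.70% at day 28, against 2.88% and 0.583% at day 20.

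The 8 younger libraries, of days 4 to 16, place these values. The TTC-1 share ending directly before the anticodon had a median of 4.19% in them, with a lowest value of 3.60% and a highest of 11.8%, and all 4 late libraries were above that highest value. In TCC-1 the younger libraries had a median of 5.63% and a highest value of 10.2%, again under all 4 late libraries. In GTC-1 the highest younger value of 44.3%, in a day 4 library, lay above 2 of the 4 late libraries. The level of TTC-1 had a median of 32297 CPM and a highest value of 72201 CPM in the younger libraries, and the 4 late libraries exceeded it. The late levels of GTC-1, TCC-1, TTC-2 and CTC-1 also exceeded all younger ones in all 4 libraries. CTC-2 differed, with a younger median of 849 CPM and a highest value of 2623 CPM, which no late library exceeded. Its day 20 libraries, with 469 and 666 CPM, were below that younger median.

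**Figure D3:**
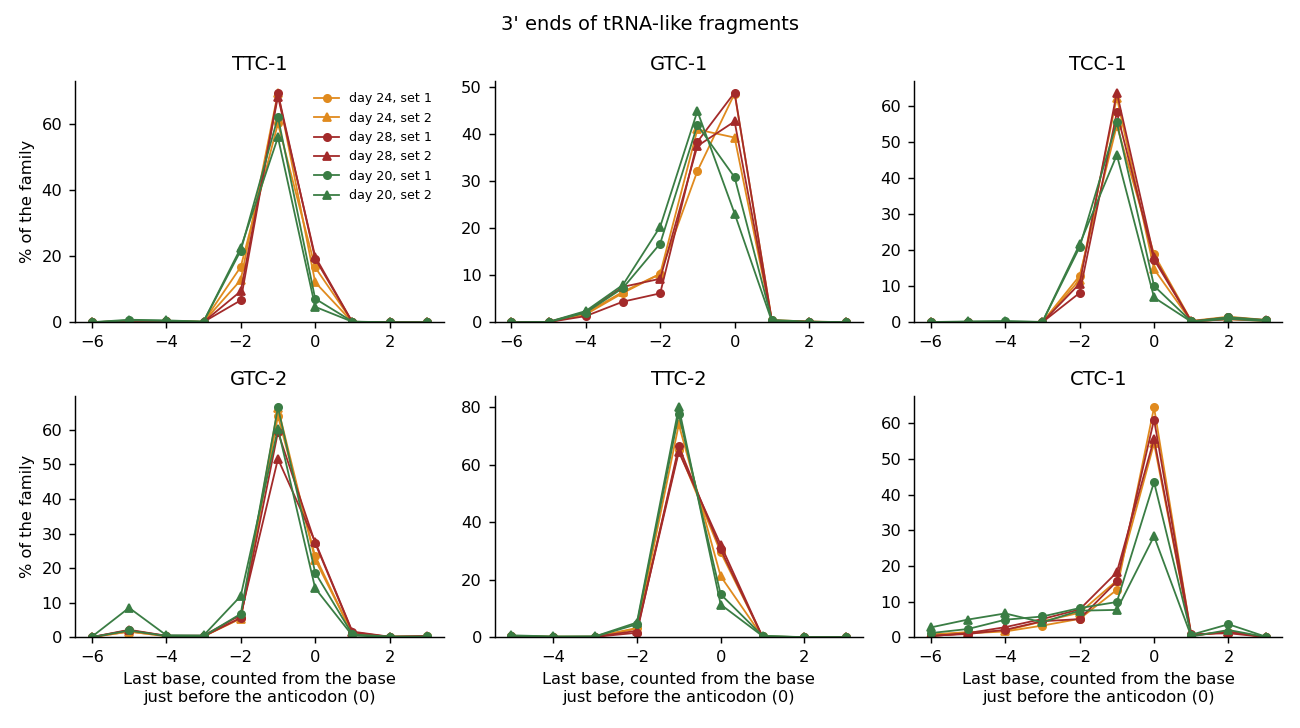
Share of a family's reads (percent, y axis) by the position of the last base, counted from the base directly before the anticodon, which is 0 (x axis), for 6 families, with a line for each library. At position 0 the day 24 and 28 lines lie above the day 20 lines in all 6 panels.

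Among abundant sequences that are neither microRNAs nor tRNA-like, one was much lower in late libraries. It has 23 nt and belongs to a ladder of 31 listed sequences of 18 to 48 nt that share their first 18 bases in the orientation shown. That orientation was picked as the one whose first 18 bases held more reads, and the strand is unknown. The origin of the sequence was not assigned here for want of a genome.
23-nt sequence: gttcaagtctaccggtctgttag
It had 25931 and 24268 CPM at day 24 and 13250 and 4076 CPM at day 28, against 48228 and 56947 CPM at day 20. The whole ladder had 78063 and 82878 CPM at day 24 and 38619 and 18619 CPM at day 28, against 146291 and 172183 CPM at day 20. In both sets day 28 was below day 24 and both were below day 20.

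Most 23-nt reads at day 20 were this sequence. It made up 59.9% and 50.004% of them at day 24 and 42.6% and 19.4% at day 28, against 74.5% and 67.6% at day 20. Without it, 23-nt reads were 1.73% and 2.43% of the library at day 24 and 1.78% and 1.69% at day 28, against 1.65% and 2.73% at day 20, and the groups overlapped. Its log2 difference in edgeR was -1.85 ± 0.61 (SE, adjusted p = 0.446), and the adjusted p in DESeq2 was 0.0224.

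Other abundant sequences, singled out after their values were seen, were lower in late libraries or overlapped day 20. A 27-nt sequence had 8181 and 6903 CPM at day 24 and 5439 and 4681 CPM at day 28, against 9381 and 9379 CPM at day 20, so all late libraries were lower (log2 difference -0.49 ± 0.61, edgeR adjusted p = 0.994). The most abundant sequence of all, with 29 nt, had 199738 and 163777 CPM at day 24 and 138005 and 93214 CPM at day 28, against 162910 and 144854 CPM at day 20. A 31-nt sequence had 28932 and 10238 CPM at day 24 and 24055 and 14335 CPM at day 28, against 14765 and 6615 CPM at day 20, and overlapped. A 30-nt sequence overlapped as well, with 4321 and 3476 CPM at day 24 and 3970 and 3269 CPM at day 28, against 3913 and 3267 CPM at day 20.
27-nt sequence: gtcagaatccgggctagaagcgacgca
29-nt sequence: gcgcgcgacctatacccggccgtcggggc
30-nt sequence: ctctcggcaacggatatctcggctctcgca
31-nt sequence: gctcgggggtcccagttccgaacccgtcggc

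Most microRNAs had fewer reads at days 24 and 28. Of 72 microRNAs named by their mature sequence, 65 were listed in both tables in DNA letters and 64 entered the test, in 49 families. Together they held 7.34% and 6.46% of reads at day 24 and 8.27% and 3.60% at day 28, against 10.7% and 10.7% at day 20, so all late libraries were lower. As a share of the reads outside the 10 tRNA-like families they held 10.1% and 9.07% at day 24 and 12.8% and 6.82% at day 28, against 13.7% and 12.7% at day 20, where day 28 of set 1 overlapped day 20. Of the 64, 57 had a negative and 7 a positive log2 difference in edgeR, with a median of -0.87 against -0.14 over all 46841 sequences tested. In 33 of the 64 all late libraries were below both day 20 libraries, and in none were they all above; over all sequences tested 6.53% were below in this sense.

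None of the 64 passed an adjusted p of 0.05 in edgeR's quasi-likelihood test (0.0% of all sequences tested were called in either direction), and 13 had an unadjusted p under 0.05, all of them negative. DESeq2 called 1 of them, miR165a, lower. With library sizes set to the summed microRNA entries, a scaling chosen after seeing the data, the median microRNA had a log2 difference of -0.18, 38 of the 64 were negative, and the median of all sequences was 0.55. On that scale the log2 differences of miR166a (0.02), miR159a (0.03), miR159b (0.52), miR403 (0.62), miR396b (0.12) and miR168a (0.18) were positive, where those given below are negative.

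MiR166a, which keeps the class III HD-ZIP transcription factors of leaf polarity in check, was the most abundant microRNA. It had 48053 and 44089 CPM at day 24 and 54644 and 21612 CPM at day 28, against 70077 and 66043 CPM at day 20, a log2 difference of -0.66 ± 0.58 (SE, edgeR adjusted p = 0.934). MiR165a, which has the same seed and targets, was lower by more. It had 2026 and 1794 CPM at day 24 and 1474 and 495 CPM at day 28, against 4721 and 4307 CPM at day 20, a log2 difference of -1.71 ± 0.48 (edgeR adjusted p = 0.352, DESeq2 adjusted p = 0.000635). Of the reads of miR165a and miR166a together, miR165a made up 4.04% and 3.91% at day 24 and 2.63% and 2.24% at day 28, against 6.31% and 6.12% at day 20. The 95% Wilson intervals of these shares, which cover counting error only, reach from 2.17% to 4.12% in late libraries and from 6.05% to 6.37% at day 20. The exact permutation p was 0.133, the smallest that 4 against 2 libraries allow.

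The following 4 microRNAs, and miR408 and miR827 below, were singled out after their values were seen. MiR160a, which targets the repressive auxin response factors, had 286 and 204 CPM at day 24 and 118 and 63.9 CPM at day 28, against 528 and 507 CPM at day 20 (log2 difference -1.72 ± 0.47, edgeR adjusted p = 0.333). MiR167d, which has the seed of the microRNAs that target the activating factors ARF6 and ARF8, had 145 and 97.6 CPM at day 24 and 58.2 and 24.6 CPM at day 28, against 239 and 218 CPM at day 20 (-1.65 ± 0.46, edgeR adjusted p = 0.346). In both, day 28 was below day 24 in each set. MiR164a, which holds down the NAC factors of leaf margins and of senescence, was rare, with 13, 5, 3 and 1 reads in the day 24 and day 28 libraries, against 30 and 24 reads at day 20 (-2.56 ± 0.62, edgeR adjusted p = 0.292). MiR393a, which targets the auxin receptors, had 16.2 and 8.57 CPM at day 24 and 7.37 and 5.10 CPM at day 28, against 20.8 and 14.8 CPM at day 20 (-0.88 ± 0.54, edgeR adjusted p = 0.821), and the groups overlapped.

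Among the other 8 of the 10 most abundant microRNAs, 4 were below both day 20 libraries in all late ones, and miR159b, miR403, miR396b and miR168a overlapped them. MiR398b, which targets copper superoxide dismutases, had 2607 and 2262 CPM at day 24 and 3848 and 1700 CPM at day 28, against 5060 and 7011 CPM at day 20 (-1.13 ± 0.50, edgeR adjusted p = 0.635). MiR157a, which targets SPL factors of the phase change, had 781 and 558 CPM at day 24 and 815 and 413 CPM at day 28, against 1463 and 1263 CPM at day 20 (-1.01 ± 0.51, edgeR adjusted p = 0.714). MiR158a (-0.72 ± 0.51) and miR159a, which targets GAMYB-like factors (-0.66 ± 0.85), were lower in all late libraries, and neither passed. MiR396b, which targets growth-regulating factors (-0.57 ± 0.47), and miR168a, which targets AGO1 (-0.51 ± 0.54), overlapped day 20.

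MiR159b had 2828 and 2037 CPM at day 24 and 4318 and 1990 CPM at day 28, against 3341 and 3101 CPM at day 20 (-0.17 ± 0.73). MiR403, which targets AGO2, had 1534 and 1252 CPM at day 24 and 1870 and 1215 CPM at day 28, against 1353 and 1965 CPM at day 20 (-0.06 ± 0.46). As a share of the sum of named microRNAs, both and miR168a were higher in all 4 late libraries than at day 20. Of the 65 listed microRNAs, 10 had a higher and 11 a lower share in this sense, and 44 overlapped. MiR827, which targets the ubiquitin ligase NLA of phosphate and nitrogen use, had 209 and 231 CPM at day 24 and 576 and 234 CPM at day 28, against 211 and 219 CPM at day 20 (0.51 ± 0.44, edgeR adjusted p = 0.929). As a share of named microRNAs it held 0.285% and 0.357% at day 24 and 0.697% and 0.651% at day 28, against 0.198% and 0.205% at day 20. MiR408, a microRNA of copper proteins, had 141 and 151 CPM at day 24 and 392 and 193 CPM at day 28, against 206 and 158 CPM at day 20 (0.25 ± 0.51).

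**Figure D4:**
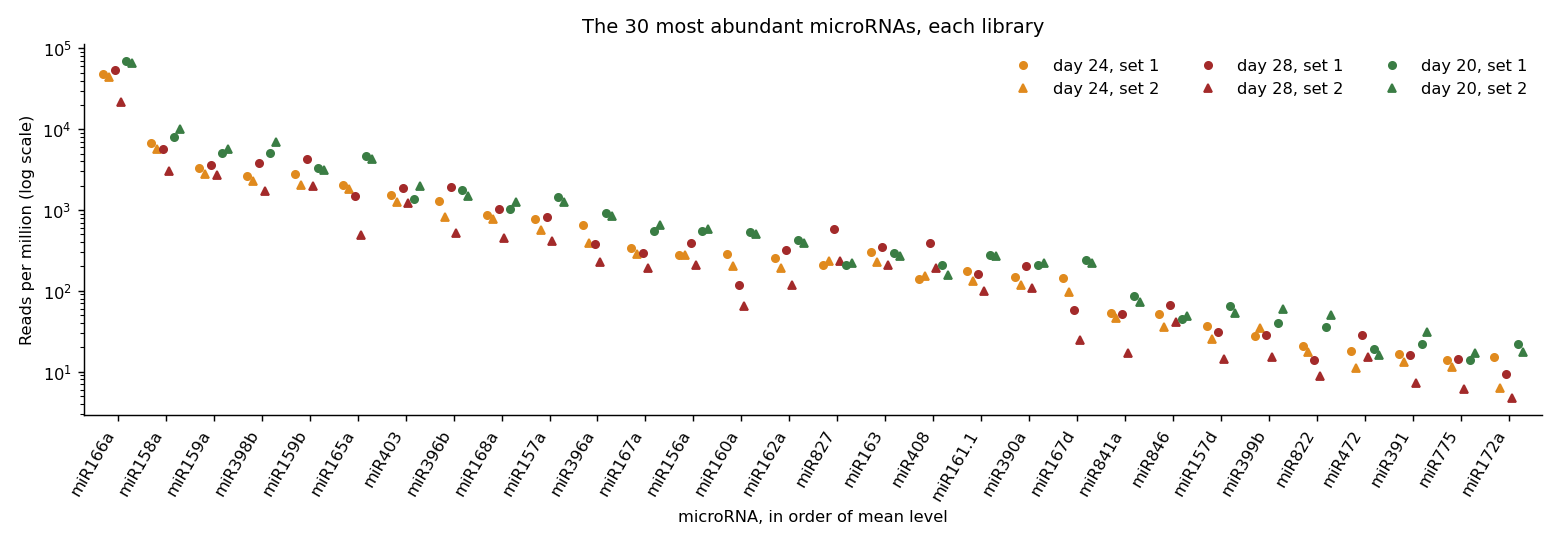
Level in CPM (log scale, y axis) of the 30 most abundant microRNAs in the 6 libraries, with days 24 and 28 left of day 20, and a circle for set 1 and a triangle for set 2. The late points of miR165a, miR160a and miR167d lie below both day 20 points, and those of miR403, miR163 and miR827 overlap them.

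Across single sequences, the edgeR test of the mean of days 24 and 28 against day 20, fitted on all 14 libraries with the set as a block, called 0 of 46841 sequences (0.0%), with a smallest adjusted p of 0.0636. At an unadjusted p under 0.05 it had 3542 sequences, 7.56% of those tested, of which 1351 were higher and 2191 lower. DESeq2 called 206 higher and 82 lower (0.44% and 0.175% of those tested), leaving 23612 without an adjusted p, and all 288 had the same sign in edgeR with an unadjusted p under 0.05. Day 24 alone against day 20 gave 0 calls in edgeR (1056, or 2.25%, at an unadjusted p under 0.05) and 15 in DESeq2 (0.032%), and day 28 against day 24 gave 0 (2134, or 4.56%) and 17 (0.0363%).

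Day 28 alone against day 20 gave 37 higher and 4 lower sequences in edgeR (0.079% and 0.00854% of those tested), and 620 and 152 in DESeq2 (1.32% and 0.325%). Of the 41, 26 averaged at least 10 CPM and moved the same way in both sets. From these, sequences that share no run of 15 bases with one of a larger change were taken, up to a set limit of 10 per direction. The limit was reached among the higher, and the lower gave 2. Of those taken, 6, singled out after their values were seen, are shown as listed, on a strand that is unknown.
19-nt sequence A: tggctaagtccgttcggcg
19-nt sequence B: aagcgtcgttcggaccgcc
20-nt sequence: aaacccgtctgatagcgctt
24-nt sequence: acaataaataacaataccgggctc
33-nt sequence: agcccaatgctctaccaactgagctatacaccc
19-nt sequence C: atcagcctcatgaaaacct
Sequence A rose to 48.4 and 106 CPM at day 28, with 4.39 and 25.1 CPM at day 24, against 0.514 and 0.706 CPM at day 20 (log2 difference of day 28 over day 20 7.21 ± 1.06, edgeR adjusted p = 0.0342). Sequence B rose to 97.3 and 116 CPM at day 28, with 15.5 and 44.4 CPM at day 24, against 1.16 and 1.94 CPM at day 20 (6.38 ± 0.72, edgeR adjusted p = 0.0326). Day 28 above day 20 in each set was a condition of the choice and is no further result. The required mean of 10 CPM was reached in A and B through the late libraries. In both, the day 24 libraries also lay above both day 20 libraries, and day 28 above day 24 in each set. The day 20 levels of A and B rest on few reads, so the sizes of these differences are uncertain.

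The 20-nt sequence rose to 53.4 and 74.9 CPM at day 28, with 12.8 and 27.7 CPM at day 24, against 2.57 and 2.47 CPM at day 20 (4.82 ± 0.61, edgeR adjusted p = 0.0326). The 24-nt sequence rose to 67.8 and 79.4 CPM at day 28, with 9.97 and 24.7 CPM at day 24, against 3.22 and 4.06 CPM at day 20 (4.59 ± 0.62, edgeR adjusted p = 0.0326). The 33-nt sequence, with 31.3 and 30.0 CPM at day 28 and 16.9 and 11.9 CPM at day 24, against 1.80 and 0.706 CPM at day 20, rose as well (4.81 ± 0.70, edgeR adjusted p = 0.0326). Its day 20 level rests on few reads too. Read as its reverse complement, the 33-nt sequence has the tRNA letters searched for above, and its origin was not assigned. Sequence C fell to 1.395 and 1.31 CPM at day 28, with 8.62 and 4.81 CPM at day 24, against 24.8 and 38.6 CPM at day 20 (-4.29 ± 0.66, edgeR adjusted p = 0.0436). These calls rest on all libraries: without the set 1 library of day 28 there were 22 higher and 0 lower, and without any other of the 6 libraries 0 and 0. None was called with the 6 libraries alone.

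Total RNA of the same ages and sets shows how targets and small RNA proteins stood. Values are FPKM, which the authors normalised for transcript length and library size and from which read depth cannot be had, summed here over the transcripts of a gene. In limma on log2(FPKM + 1) over 28 libraries, 4140 of 18239 genes were higher and 2169 lower at days 24 and 28 (22.7% and 11.9%), with a median log2 difference of 0.17 over all genes. Quantile normalisation gave 3339 higher and 3440 lower, with a median of 0.02. Of 80 tested targets of known microRNAs, 16 rose and 11 fell (20.0% and 13.8%), shares near those of all genes, and 53 did not pass. The median of the targets was 0.06.

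The senescence state of the leaves differed between the ages. SAG12, a cysteine protease used as a marker of senescence, rose to 27.9 and 9.26 FPKM at day 24 and 1841 and 1255 FPKM at day 28, against 2.57 and 2.80 FPKM at day 20 (log2 difference 5.46 ± 0.37, limma adjusted p = 5.78e-09). LHCB2.1, a light-harvesting protein of photosystem II, fell to 628 and 843 FPKM at day 24 and 172 and 366 FPKM at day 28, against 1243 and 1469 FPKM at day 20 (-1.66 ± 0.20, limma adjusted p = 6.7e-06). All 3 leaf markers fell and 2 of 3 senescence markers rose (SEN1 did not pass), while the shoot meristem and root hair markers STM, WUS, COBL9 and EXPA7 were at most 0.13 FPKM in the 6 libraries. The flower gene AP3 was at most 0.17 FPKM, and AG, at most 0.55 FPKM in late libraries and 1.08 FPKM at day 20, was called lower (-0.42 ± 0.15, limma adjusted p = 0.0445), a call lost on leaving out any library except day 28 of set 2 (adjusted p of 0.081 to 0.231).

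Targets of microRNAs that were lower in late libraries moved in both directions. Those of miR160, miR164, miR167, miR393 and miR827, given here and below, were singled out after their values were seen. NAC1, a target of miR164, rose to 41.1 and 33.4 FPKM at day 24 and 108 and 94.5 FPKM at day 28, against 27.4 and 27.5 FPKM at day 20 (1.13 ± 0.19, limma adjusted p = 0.000191). ORE1, the miR164 target that promotes leaf senescence, had 39.8 and 39.99 FPKM at day 24 and 96.8 and 112 FPKM at day 28, against 47.5 and 28.7 FPKM at day 20, and did not pass (0.79 ± 0.38, limma adjusted p = 0.116). MYB33, a GAMYB-like target of miR159, rose to 7.29 and 9.27 FPKM at day 24 and 12.6 and 15.8 FPKM at day 28, against 5.80 and 6.27 FPKM at day 20 (0.75 ± 0.14, limma adjusted p = 0.000637). MYB101, another miR159 target, rose to 0.349 and 0.293 FPKM at day 24 and 0.608 and 0.387 FPKM at day 28, against 0 and 0.0377 FPKM at day 20 (0.46 ± 0.09, limma adjusted p = 0.000779), and MYB65 did not pass (limma adjusted p = 0.185). IAR3, an amidohydrolase that releases auxin and is a target of miR167, rose to 40.6 and 41.9 FPKM at day 24 and 35.8 and 42.3 FPKM at day 28, against 21.5 and 19.8 FPKM at day 20 (0.93 ± 0.20, limma adjusted p = 0.00175).

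Of the 5 HD-ZIP targets of miR165 and miR166, 2 fell and none rose. PHB had 3.57 and 4.87 FPKM at day 24 and 2.505 and 3.51 FPKM at day 28, against 4.53 and 8.57 FPKM at day 20 (-0.68 ± 0.22, limma adjusted p = 0.0223). Its call was lost without the day 20 library of set 2 or the day 28 library of set 1 (adjusted p of 0.0522 to 0.329) and in a fit with no block for the set. ATHB8 (-0.73 ± 0.25, limma adjusted p = 0.0314) lost its call on leaving out any library except day 20 of set 1 (0.0502 to 0.316). PHV had 16.3 and 18.99 FPKM at day 24 and 20.2 and 25.5 FPKM at day 28, against 15.6 and 12.9 FPKM at day 20, and did not pass (0.47 ± 0.20, limma adjusted p = 0.0757).

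CSD1, the cytosolic copper superoxide dismutase and a target of miR398, rose to 138 and 137 FPKM at day 24 and 158 and 124 FPKM at day 28, against 63.8 and 78.9 FPKM at day 20 (0.96 ± 0.23, limma adjusted p = 0.00324). When day 20 of set 1 was left out, the adjusted p was 0.0861. CSD2, the chloroplast form, did not pass (-0.49 ± 0.26, limma adjusted p = 0.153). NLA, the miR827 target, rose to 10.3 and 15.8 FPKM at day 24 and 20.0 and 24.7 FPKM at day 28, against 8.24 and 10.7 FPKM at day 20 (0.79 ± 0.19, limma adjusted p = 0.00356), and its adjusted p was 0.0619 when day 20 of set 1 was left out. AGO2, the miR403 target, rose to 9.47 and 9.49 FPKM at day 24 and 12.5 and 9.50 FPKM at day 28, against 6.81 and 6.99 FPKM at day 20 (0.50 ± 0.13, limma adjusted p = 0.00793). Its call was lost without either day 20 library (0.0605 to 0.0667) and with quantile normalisation.

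Several called targets of other microRNAs lost their call on leaving out 1 library. ARF16 (0.54 ± 0.18, limma adjusted p = 0.0243) and ARF10 (0.48 ± 0.18, limma adjusted p = 0.0464), both of miR160, rose, and ARF17 did not pass. The ARF16 call was lost without either day 20 library, the day 24 library of set 2 or the day 28 library of set 1 (0.0613 to 0.158), and that of ARF10 without these or the day 24 library of set 1 (0.0774 to 0.232), and with quantile normalisation, a pseudocount of 0.1 or no block. ARF8, of miR167, fell (-0.52 ± 0.17, limma adjusted p = 0.0238), and its call was lost without either day 20 library or either set 2 library of days 24 and 28 (0.0559 to 0.223). SPL9, a miR157 target, fell (-0.48 ± 0.17, limma adjusted p = 0.0331), and its call was lost on leaving out any library except day 28 of set 2 (0.0534 to 0.176). TIR1, an auxin receptor and target of miR393, fell (-0.50 ± 0.13, limma adjusted p = 0.00493), and its call was lost without the day 20 library of set 2 (0.0621). AFB1, another receptor of this family, fell (-0.79 ± 0.25, limma adjusted p = 0.0226), and its call was lost without any set 2 library (0.0567 to 0.497), while AFB2 and AFB3 did not pass. GRF8, of miR396, rose at a low level (0.53 ± 0.12, limma adjusted p = 0.00256), a call that none of these alternatives ended, and AGO1, of miR168, did not pass (limma adjusted p = 0.132). Also singled out after their values were seen were the NF-Y subunits NFYA2 (1.03 ± 0.19, limma adjusted p = 0.000441) and NFYA3 (1.05 ± 0.16, limma adjusted p = 7.96e-05) of miR169, which rose, and the flowering repressor SNZ of miR172, which fell (-1.31 ± 0.17, limma adjusted p = 1.21e-05). Of 7 tested targets of miR169, 4 rose and 0 fell. Of 5 tested targets of miR172, 1 rose, 1 fell and 3 did not pass.

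The list held 3 RNases of the T2 class, RNS1, RNS2 and RNS3, and all 3 rose, against 22.7% of all genes. No other gene of the class was listed, and the list was chosen with earlier results of these data known. RNS2, a vacuolar RNase of ribosomal RNA turnover, rose to 62.1 and 68.2 FPKM at day 24 and 120 and 122 FPKM at day 28, against 46.9 and 48.8 FPKM at day 20 (0.88 ± 0.15, limma adjusted p = 0.000244). RNS1, a secreted RNase induced by phosphate starvation and wounding, had 0.334 and 1.01 FPKM at day 24 and 6.67 and 6.05 FPKM at day 28, against 0.636 and 0.197 FPKM at day 20 (1.31 ± 0.19, limma adjusted p = 5.13e-05). The day 24 library of set 1 lay below the day 20 library of the same set, and both day 28 libraries were above day 20. RNS3 rose to 0.830 and 0.717 FPKM at day 24 and 2.55 and 2.06 FPKM at day 28, against 0.189 and 0.347 FPKM at day 20 (0.93 ± 0.21, limma adjusted p = 0.00262). Whether they had a part in the tRNA-like fragments was not tested.

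Of 26 tested genes of small RNA production, turnover and these RNases, 7 rose (26.9%), 2 fell (7.69%) and 17 did not pass, against 22.7% and 11.9% of all genes. None of the 4 Dicer genes passed. SE, a partner of DCL1 in cutting microRNA precursors, rose (0.44 ± 0.10, limma adjusted p = 0.00316), but not without the day 20 library of set 2 (0.054) or with quantile normalisation. HST, a factor of microRNA export, rose (0.60 ± 0.19, limma adjusted p = 0.0222), but not without the day 20 or day 28 library of set 2 (0.0745 to 0.261). NRPD1, the large subunit of RNA polymerase IV, rose (0.43 ± 0.15, limma adjusted p = 0.0403), and its call was lost with no block and without the day 20 or day 28 library of set 1 or the day 24 or day 28 library of set 2 (0.0693 to 0.449) and with quantile normalisation. RDR6, the RNA-dependent RNA polymerase of trans-acting siRNAs, had 4.68 and 3.42 FPKM at day 24 and 1.42 and 1.37 FPKM at day 28, against 4.35 and 4.67 FPKM at day 20, and fell (-0.67 ± 0.13, limma adjusted p = 0.000861), although day 24 of set 1 overlapped day 20. AGO4, which binds 24-nt siRNAs, fell to 6.36 and 5.28 FPKM at day 24 and 3.38 and 2.90 FPKM at day 28, against 7.12 and 7.28 FPKM at day 20 (-0.63 ± 0.19, limma adjusted p = 0.0174), and its call was lost without either day 20 library or either set 2 library of days 24 and 28 (0.0509 to 0.11).

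**Figure D5:**
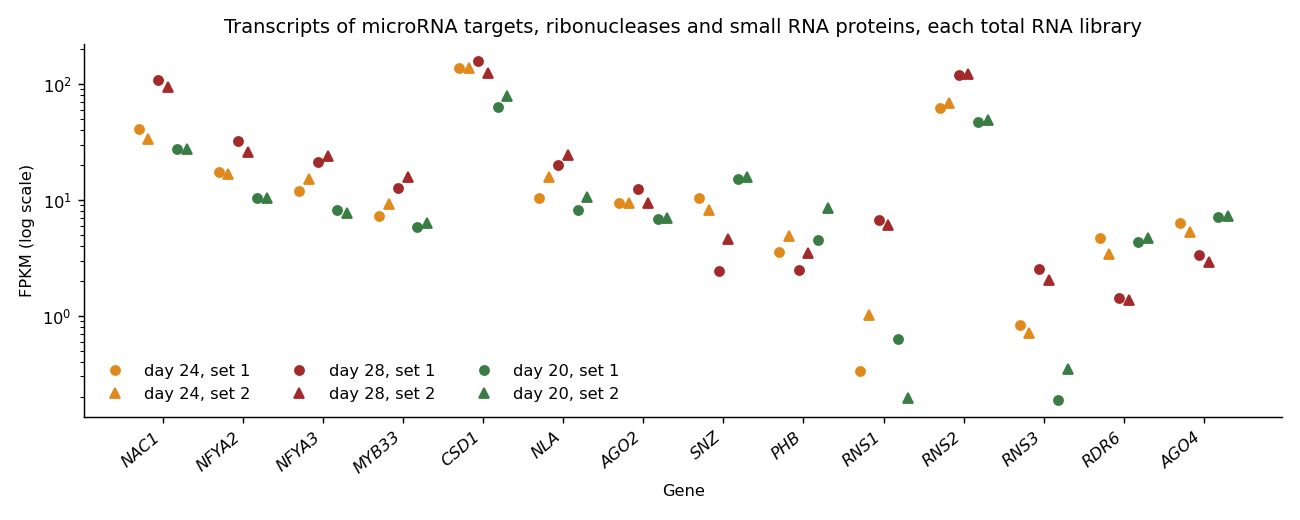
FPKM (log scale, y axis) of 14 genes in the 6 total RNA libraries, with days 24 and 28 left of day 20, and a circle for set 1 and a triangle for set 2. NAC1, NFYA2, NFYA3, MYB33, CSD1, RNS2 and RNS3 have all late points above both day 20 points, and SNZ and AGO4 all below.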

How the data were processed

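For small RNA the authors deposited 1 table of raw counts per set, with a row for each sequence. Total RNA was available as FPKM per transcript, also deposited by the authors. The submitters' processing notes name TopHat 1.4.0, Cufflinks and TAIR10; adapter trimming and the listing limit of small RNA are not given in the sources used here. A row's strand is unknown, since many entries appear in both orientations. The 53340 sequences listed in both tables were used, and entries in RNA letters were kept apart. The 46841 that reached 10 counts in 2 or more libraries entered a quasi-likelihood test in edgeR 4.0.16 (TMM factors, 14 libraries, day as a factor, set as a block), with DESeq2 1.42.0 as the alternative. Lengths and genes (at least 1 FPKM in at least 2 libraries) were tested with limma 3.58.1. The Benjamini-Hochberg adjustment ran over all features of a fit, with a threshold of 0.05. SEs in edgeR are those implied by its F statistic. Work was done in R 4.3.3 and Python 3.11.15. The fits were tested on simulated data. Named sequences had to pass, average 10 CPM and have the same direction in both sets; microRNAs named are the 10 most abundant; genes named are their targets and called genes of small RNA proteins. Other microRNAs, and targets of miR160, miR164, miR167, miR169, miR172, miR393 and miR827, were singled out after their values were seen. MicroRNA names were assigned from known mature sequences, since the tables give none. Members and lists were chosen with earlier results of these data known.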

Additional observations from a re-analysis of the deposited data

Results flagged for a closer look

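For 11 of the 110 listed genes tested (10.0%, against 7.47% of all 18239 genes) the difference from day 20 was not the same at days 28 and 24, as tested by the contrast of day 28 over day 24 in limma (adjusted p under 0.05) with a log2 size of at least 1. Both differences share the day 20 libraries, so the test is between days 28 and 24 themselves. Senescence markers were higher at day 28, with a log2 difference of 6.46 for SAG12 and 1.16 for SAG13, and light-harvesting genes were lower, with -1.55 for LHCB1.3 and -1.53 for LHCB2.1. The RNase RNS1 was higher by 2.17, and the polymerase RDR6 had -1.06. Among microRNA targets, NAC1 (1.42) and ORE1 (1.36), both of miR164, were higher, and SNZ (-1.23, of miR172) and SPL4 (-1.0, of miR156) were lower. The non-coding TAS4 precursor, cut by miR828, had 2.01, but it was listed at 0 in both day 24 libraries, and at day 28 it had 9.92 FPKM in set 1 and 0.478 FPKM in set 2.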

How the results depend on the processing

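The 6 libraries in 2 sets limit every test here. For days 24 and 28 against day 20, edgeR called 0 sequences; without a filter on low counts it called 1 higher and 1 lower, without day 4 it called 1 lower, and DESeq2 called 206 and 82. DESeq2 called 15 sequences higher for day 24 against day 20, 17 for day 28 against day 24 (edgeR 1 with the strict filter of 50 counts in 6 libraries) and 1 microRNA. The 37 higher and 4 lower sequences of day 28 against day 20 became 19 and 2 with DESeq2-style size factors, 1 and 1 with library totals, 620 and 152 with DESeq2, 0 and 0 with the 6 libraries alone, and 8 higher without day 4. They were 23 higher with sequences of either table, 109 higher with the summed microRNA entries as library sizes, and 14 lower with the strict filter. Leaving out 1 library gave 0 to 22 higher and 0 lower; the cause was not tested.

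Without the replicate block 21 were higher and 1 lower. Deviations of same-numbered small RNA libraries correlated at -0.29 to 0.59 over 21 pairs of ages, with 11 above 0.1. Those of total RNA correlated at -0.15 to 0.65 over 91 pairs, with 66 above 0.1. Whether either reflects a pairing by set was not tested, so a pairing was shown for neither.

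With the summed microRNA entries as library sizes, an alternative chosen after seeing the data, log2 differences turned positive for miR166a (0.02), miR159a (0.03), miR159b (0.52), miR403 (0.62), miR396b (0.12) and miR168a (0.18). Leaving out 1 library gave -0.26 to 0.16 for miR403, with 0.16, 0.11 and 0.08 without the set 2 library of day 20, the set 2 library of day 24 and the set 1 library of day 28. With TMM factors 3 tRNA-like families in place of 6 were higher.

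Counted by distinct sequences, the late minus day 20 difference was -0.198 percentage points for 21 nt, -0.152 for 22 nt, -0.0868 for 23 nt and 0.296 for 29 to 33 nt, since each sequence then counts once, and 0.754 for 34 to 48 nt (main -0.941). Leaving out 1 library gave -4.07 to 2.19 points for 34 to 48 nt and -1.25 to 0.0179 for 24 nt.

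In total RNA, quantile normalisation gave 3440 lower genes (49.3% of calls higher, against 65.6%), and leaving out 1 library gave 2085 to 3673 higher and 1292 to 2034 lower, with the lowest counts without a day 20 library. Of 41 called genes on the lists, 20 kept their call under every alternative. A sum over microRNA variants was not run, for want of hairpin sequences.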
